A study of Mus musculus with 18 samples.

Results

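Atoh1 and the 4 transcription factors best known to act downstream of it, Gfi1, Pou4f3, Barhl1 and Insm1, were followed in whole embryonic mouse lungs. The genes were taken by symbol, and all 5 were found among the 23420 rows of the expression tables. Atoh1 was picked because it rises from near 0 in deficient lungs of all 3 lines, so its own difference is described here without a test, and the question asked of the data is whether the target factors follow it. Lungs were collected at 14.5 days post coitus (dpc) and their RNA was sequenced. In the deficient lungs both floxed alleles of Rptor, Tfam or Cox10 had been removed by Shh-Cre (Rptor f/f, Tfam f/f or Cox10 f/f with ShhCre/+), and the control lungs of each line carried 1 floxed and 1 wild-type allele together with ShhCre/+. Every lung, control or deficient, therefore carried the Shh-Cre allele, and there was no group without Cre. Rptor encodes the scaffold of mTOR complex 1 (mTORC1), Tfam a protein that packages the mitochondrial genome and starts its transcription, and Cox10 a farnesyltransferase that makes a haem precursor for respiratory complex IV. Each line had 3 deficient and 3 control samples, 18 in all.

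Shh-Cre acts in the lung epithelium, whereas mesenchyme, vessels, blood cells and nerves of a deficient lung keep the gene. The targeted transcript was accordingly measured in a mixture of cells: deficient lungs held 96.0% of the control mean of Rptor, 92.0% of that of Tfam and 99.6% of that of Cox10, and the groups overlapped in each line, so that these values do not check the labels. Between 27675601 and 29704748 reads were assigned to genes in each sample, and 17671 to 17910 genes had a value above 0. A normalised read is a read divided by the size factor of its sample, and 1 read was worth 0.978 to 1.02 normalised reads. At this depth a gene with 0 reads in a sample may still contribute up to 3 reads. Each line was normalised in a table of its own. Nothing in the labels says whether the 3 samples of a group came from different litters, so p-values measure the spread between these samples. The study describes its controls as littermates and says that mutants of several litters were pooled for its statistics. It does not give the litter of each sample, so the tests do not use litter.

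Atoh1 encodes a basic helix-loop-helix (bHLH) transcription factor that binds E-box DNA as a dimer with ubiquitous E proteins. It is known as the factor that specifies inner ear hair cells, cerebellar granule neurons, Merkel cells of the skin and secretory cells of the intestine, and it is held in check by Notch signalling and by Id proteins, which sequester E proteins. Gfi1 is a zinc finger repressor used in hair cells, intestinal secretory cells and blood. Pou4f3 is a POU homeodomain factor needed for the survival of hair cells. Barhl1 is a homeodomain factor of hair cells and granule neurons. Insm1 is a zinc finger factor of neuroendocrine and neuronal precursors, which in the lung marks pulmonary neuroendocrine cells.

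Atoh1 (ENSMUSG00000073043.5) lies on chromosome 6 at 64729125-64731245 on the + strand of mm10 (GRCm38) and is a single-exon gene of 2121 bases. Gfi1 (ENSMUSG00000029275.18) is found on chromosome 5 at 107716657-107726036 on the - strand. Barhl1 (ENSMUSG00000026805.14) and Insm1 (ENSMUSG00000068154.5), a further single-exon gene, are both on chromosome 2, at 28907679-28916668 on the - strand and at 146221921-146225020 on the + strand. None of them is overlapped by another gene of the tables. The RefSeq (GRCm38.p6) start-site windows of 3 members, which run from 250 bases before to 50 after the annotated start, are shown because an E-box is the letter code that an Atoh1 dimer reads. They are chr6:64728875-64729174 on the + strand for Atoh1, chr5:107725756-107726055 on the - strand for Gfi1 and chr2:28916619-28916918 on the - strand for Barhl1. Capitals mark the E-box letters CAGCTG, which read alike on both strands, and CAGATG on either strand.
Atoh1: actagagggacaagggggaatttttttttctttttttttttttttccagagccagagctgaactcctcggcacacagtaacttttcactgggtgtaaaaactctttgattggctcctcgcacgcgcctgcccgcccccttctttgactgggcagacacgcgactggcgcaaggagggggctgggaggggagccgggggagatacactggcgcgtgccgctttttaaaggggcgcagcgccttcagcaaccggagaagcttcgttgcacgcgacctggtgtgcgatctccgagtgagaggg
Gfi1: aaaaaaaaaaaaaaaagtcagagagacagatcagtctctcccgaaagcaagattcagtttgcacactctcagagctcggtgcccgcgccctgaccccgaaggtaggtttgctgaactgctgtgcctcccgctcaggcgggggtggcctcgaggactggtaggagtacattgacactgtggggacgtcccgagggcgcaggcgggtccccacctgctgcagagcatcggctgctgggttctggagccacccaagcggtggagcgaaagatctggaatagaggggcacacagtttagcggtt
Barhl1: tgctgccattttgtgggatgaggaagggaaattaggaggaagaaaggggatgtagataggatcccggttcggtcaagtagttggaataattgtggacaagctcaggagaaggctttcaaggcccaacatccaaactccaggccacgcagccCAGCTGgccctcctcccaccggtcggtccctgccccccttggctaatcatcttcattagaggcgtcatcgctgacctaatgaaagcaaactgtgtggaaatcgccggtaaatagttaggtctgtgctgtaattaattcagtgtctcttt

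The Barhl1 window held 1 CAGCTG, and so did the window of a second annotated Barhl1 start at chr2:28912446-28912745. Neither the Atoh1 window nor either of the 2 Gfi1 windows held CAGCTG or CAGATG. The general E-box letters CANNTG, where N is any base, occurred 1 time in each Gfi1 window and 1 and 2 times in the Barhl1 windows shown and named here. The Atoh1 window held 0. Of 32851 mouse start-site windows of the same length, 16.3% held CAGCTG, 17.2% held CAGATG on either strand and 72.3% held CANNTG, so these letters are common. Their presence or absence in a window of this length is a description of sequence and says nothing about binding.

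In control lungs Atoh1 was close to the limit of detection. The Rptor line controls had 0.997, 2.0 and 7.96 normalised reads of Atoh1, those of the Tfam line 2.03, 7.07 and 8.0, and those of the Cox10 line 10.9, 2.02 and 6.0. In 4 of the 9 control samples the value stood for 3 reads or fewer. Rptor-deficient lungs had 256, 409 and 513 normalised reads of Atoh1. In Tfam-deficient lungs the values were 116, 138 and 144, and in Cox10-deficient lungs they were 61.9, 89.5 and 223. Every deficient sample thus lay above every control sample, also between lines, since the highest control value was 10.9 and the lowest deficient value 61.9. In whole lungs a change in the number of cells that express a gene and a change in the RNA per cell cannot be told apart.

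Summed over the 3 samples of a group, 11 control reads of Atoh1 stood against 1183 deficient reads in the Rptor line, a ratio of 109 with a 95% counting interval of 60.6 to 219. The Tfam line gave 17 against 403 reads, a ratio of 23.4 (95% counting interval 14.4 to 40.5). In the Cox10 line 19 reads stood against 377, a ratio of 19.9 (95% counting interval 12.6 to 33.5). These intervals, taken from exact binomial limits, cover counting error only. The deficient group means were 393 ± 129 (SD, n = 3) in the Rptor line, 133 ± 14.6 (SD, n = 3) in the Tfam line and 125 ± 86.4 (SD, n = 3) in the Cox10 line. The Rptor-deficient samples lay above all other deficient samples, whereas the Tfam and Cox10 groups overlapped, as did the 3 control groups with each other. This order was read across tables that were normalised apart. On the log2(value + 1) scale the difference, deficient minus control, came to 6.65 for Rptor, 4.46 for Tfam and 4.10 for Cox10, the largest rise among the 14940, 15053 and 14937 genes tested in these lines, a rank that the choice of Atoh1 used. The share of tested genes whose groups did not overlap in the higher direction was 24.3% (Rptor), 10.9% (Tfam) and 10.6% (Cox10).

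**Figure D1:**
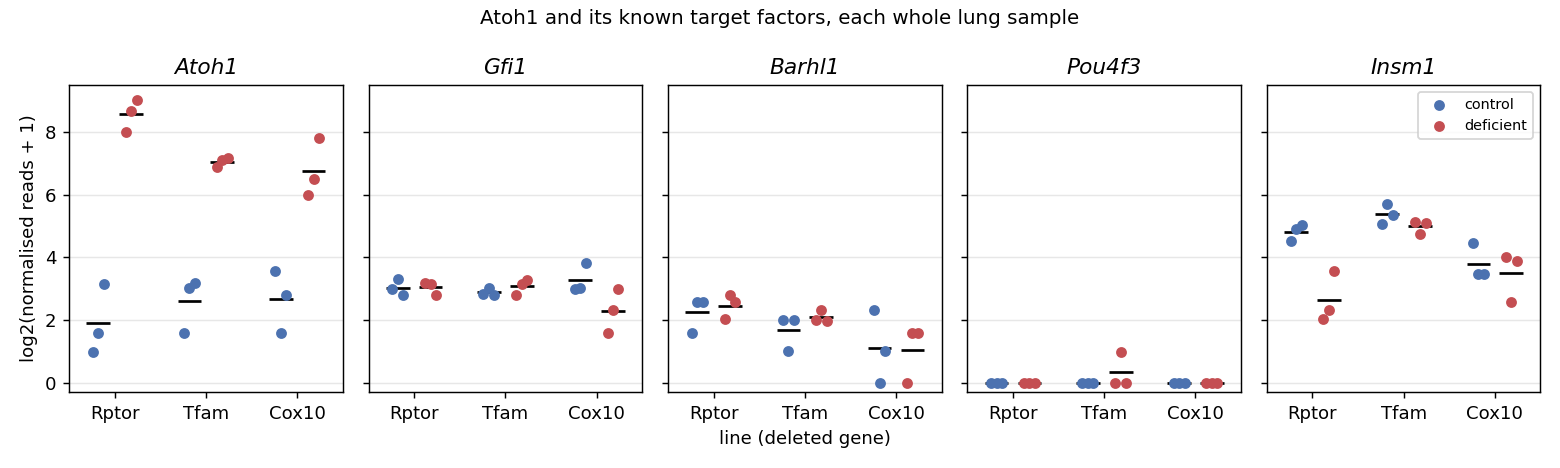
Normalised reads of Atoh1, Gfi1, Barhl1, Pou4f3 and Insm1 in each whole lung sample, as log2(value + 1) on the y axis, by line on the x axis. Points are the 3 control (blue) and 3 deficient (red) samples of a line and bars are group means of the log2 values. Atoh1 is high in all deficient samples (61.9 to 513 normalised reads), while Gfi1, Barhl1 and Pou4f3 stay at or below 13 normalised reads in both states and Insm1 is lower in Rptor-deficient lungs.

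The repressor Gfi1 had fewer rather than more reads in deficient lungs as a whole (58 against 68), within the spread between samples. Rptor line controls had 6.98, 8.99 and 5.97 normalised reads of Gfi1 and Rptor-deficient lungs 8.16, 7.92 and 5.93, ranges that overlap almost fully. For Tfam, 6.10, 7.07 and 6.0 in controls stood beside 5.95, 7.94 and 8.80 in deficient lungs, which overlap too. Only the Cox10 line had groups without overlap, and there Gfi1 was the lower one in deficient lungs, at 2.0, 4.02 and 6.92 normalised reads against 6.95, 7.06 and 13 in controls. In that line 10.8% of tested genes had groups that did not overlap with the deficient samples lower, and the exact permutation test of 3 samples against 3 gave its smallest possible value, 0.1. With library totals as the scale the Cox10 groups overlapped and the exact permutation p was 0.2.

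Since Gfi1 did not reach the level needed for the fit across genes (10 or more normalised reads in 3 or more samples of the line) in any line, it was compared over all 18 samples by an exact permutation test within lines. The mean difference, deficient minus control, was -0.25 on the log2(value + 1) scale (two-sided exact permutation p = 0.291, unadjusted, n = 9 deficient and 9 control samples). The 3 within-line differences were 0.0090 for Rptor, 0.20 for Tfam and -0.97 for Cox10. The ratio of its deficient to control reads was 0.854 with a 95% counting interval of 0.591 to 1.23. Over the same samples the ratio of Atoh1, the gene picked for its rise, was 41.8 (95% counting interval 31.3 to 57.1). Both intervals pool the 3 lines and cover counting error only, so they leave out the spread between samples and lines.

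Barhl1, the homeodomain factor of hair cells and granule neurons, was sparse throughout. It had 1.99, 5.0 and 4.97 normalised reads in Rptor line controls and 3.06, 5.94 and 4.94 in Rptor-deficient lungs. In the Tfam line the controls had 3.05, 1.01 and 3.0 and the deficient lungs 2.98, 3.97 and 2.93. The Cox10 line gave 3.97, 0 and 0.999 in controls and 0, 2.01 and 1.98 in deficient lungs. The groups overlapped in all 3 lines. Over all samples 24 control reads stood against 28 deficient reads of Barhl1, a ratio of 1.17 (95% counting interval 0.653 to 2.10), and the mean log2 difference of 0.19 was within the spread between samples (two-sided exact permutation p = 0.560, unadjusted). A change of Barhl1 up to about the upper bound of that interval was not detectable at this depth.

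Pou4f3, which keeps hair cells alive, was absent from nearly all libraries. A single read was found in 1 Tfam-deficient sample (0.993 normalised reads), and the other 17 samples were at 0. The 9 deficient samples, with 61.9 to 513 normalised reads of Atoh1, thus held 1 read of Pou4f3 in all. No fold is given, because no library exceeded the limit of 3 reads.

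Insm1 was the only target factor measured well enough for the fit across genes in each line, and it fell in Rptor-deficient lungs, opposite in sign to Atoh1. Rptor line controls had 21.9, 29 and 31.8 normalised reads of Insm1, and Rptor-deficient lungs had 3.06, 3.96 and 10.9, so that the groups did not overlap. The log2 difference was -2.19 (SE 0.44, 95% confidence interval -3.18 to -1.19), with an adjusted p = 0.00596 in limma, and 83 control reads stood against 18 deficient reads. In the Rptor line 34.8% of tested genes passed this threshold and 18.2% did so with lower values (16.6% with higher ones), so a call of this kind was frequent there, and 26.0% of tested genes had deficient samples lower without overlap.

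In the Tfam line Insm1 had 32.5, 50.5 and 40.0 normalised reads in controls and 33.7, 25.8 and 33.2 in deficient lungs. These groups overlapped, and the log2 difference of -0.38 (SE 0.23, 95% confidence interval -0.89 to 0.12) did not pass the threshold (adjusted p = 0.427 in limma), in a line where 4.66% of tested genes did (2.63% lower and 2.03% higher). In the Cox10 line 20.8, 10.1 and 9.99 in controls stood beside 15, 5.03 and 13.8 in deficient lungs. Here too the groups overlapped and the log2 difference of -0.30 (SE 0.49, 95% confidence interval -1.42 to 0.82) did not pass (adjusted p = 0.806 in limma), with 0.475% of tested genes called (0.335% lower and 0.141% higher). The upper ends of these intervals, 0.12 and 0.82, leave room for a rise of Insm1 up to those sizes.

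Over the 3 lines, the mean difference of Insm1 was -0.96 (SE 0.24, 95% confidence interval -1.46 to -0.45, adjusted p = 0.00511 in limma), among 37.1% of genes called in this contrast, 19.1% with lower values. In reads, 246 in controls stood against 146 in deficient lungs, a ratio of 0.594 (95% counting interval 0.481 to 0.732). The difference between the Rptor and Tfam effects on Insm1 was -1.80 (SE 0.59, adjusted p = 0.0567 in limma), and that between the Rptor and Cox10 effects was -1.89 (SE 0.59, adjusted p = 0.0605), so that neither passed the threshold, which 11.2% and 7.48% of genes passed in these contrasts. With the replicate number as a block in all 3 lines, these adjusted p-values were 0.0256 and 0.0277. Without replicate 3 of the Rptor-deficient lungs, which had the most Insm1 of its group (10.9), they were 0.0153 and 0.0148. Both passed also without replicate 2 of the Cox10-deficient lungs (0.0321 and 0.0180), the first also without replicate 3 of the Cox10-deficient lungs (0.0446) and the second without replicate 1 of the Cox10 controls (0.0429). The Tfam and Cox10 effects differed by -0.08 (95% confidence interval -1.33 to 1.16, adjusted p = 0.995), where 0.055% of genes passed.

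**Figure D2:**
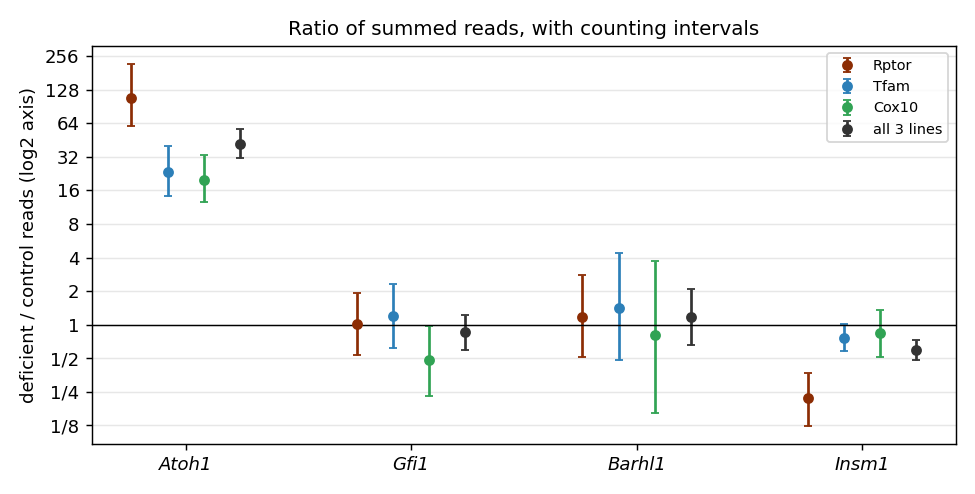
Ratio of deficient to control reads (y axis, log2 scale, each sum divided by the total reads of its samples) for Atoh1, Gfi1, Barhl1 and Insm1 in each line and over all 3 lines. Points are ratios of reads summed over samples and bars are 95% counting intervals, which leave out the spread between samples. Atoh1 lies at 19.9 to 109, Gfi1 lies between 0.483 and 1.19 and Barhl1 between 0.803 and 1.41, and Insm1 lies at 0.219 in the Rptor line.

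Per length of transcript, the members can be compared with each other. In normalised reads per kilobase, Atoh1 had 1.72, 2.69 and 2.98 in the Rptor, Tfam and Cox10 controls and 185, 62.5 and 58.9 in deficient lungs. Gfi1 had 2.29, 2.01 and 2.82 per kilobase in the same controls, so that in control lungs its level was of the order of that of Atoh1. In deficient lungs Gfi1 had 2.30, 2.37 and 1.35 per kilobase. Insm1 was the most abundant member of the control lungs, with 8.90, 13.2 and 4.40 normalised reads per kilobase, and Barhl1 never exceeded a group mean of 1.19 per kilobase.

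Epithelial transcripts were lower in deficient lungs, and since Shh-Cre acts in the epithelium this was measured beside the members. Of 15 lung epithelial genes, 13 fell and 1 rose in the Rptor line, 8 fell and 1 rose in the Tfam line and 3 fell in the Cox10 line (adjusted p below 0.05 in limma), against 34.8%, 4.66% and 0.475% of all tested genes called in either direction in these lines. The median log2 differences of the list were -0.98, -0.39 and -0.43 beside medians of 0.0083, 0.00098 and 0.0014 over all tested genes. The gene that rose in both lines was Id2. For Cox10, DESeq2 called 9 genes of this list, Id2 higher and the others lower, and edgeR called 3. Summed over the list, the level moved from 60782-66836 in Rptor controls to 28769-35648 normalised reads in Rptor-deficient lungs. In the Tfam line the sums were 56562-57588 and 43353-48787, and in the Cox10 line 43477-44408 and 30299-42308. E-cadherin (Cdh1) had means of 5527 and 1502 normalised reads in control and deficient lungs of the Rptor line. The part of this shift in the values of the members was examined by subtracting, in each sample, the average of the epithelial genes Epcam, Cdh1 and Nkx2-1 on the log2(value + 1) scale, a value that itself was lower in deficient lungs of each line (12.35 and 11.18 for Rptor, 12.19 and 11.92 for Tfam, 11.93 and 11.54 for Cox10).

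Relative to these epithelial genes Atoh1 was higher by 7.82, 4.73 and 4.50 on the log2 scale in the Rptor, Tfam and Cox10 lines. Gfi1 differed by 1.18, 0.47 and -0.57, with a mean of 0.36 (two-sided exact permutation p = 0.171, unadjusted over 3 genes). In the Rptor and Tfam lines the relative values of Gfi1 did not overlap and were higher in deficient lungs. The exact permutation test within each of these lines gave its smallest possible value, 0.1. In the Cox10 line the groups overlapped (exact permutation p = 0.3). The relative value of Barhl1 differed by 1.39, 0.69 and 0.35, with a mean of 0.81 and an exact permutation p of 0.0248, which became 0.222 with a pseudocount of 0.1 instead of 1. Leaving out replicate 2 or 3 of the Cox10 controls, or replicate 2 or 3 of the Cox10-deficient lungs, also ended this call (exact permutation p = 0.050 to 0.0753). The reference was lower in deficient lungs of each line, while Barhl1 without the reference gave a p of 0.560. Insm1 differed by -1.02, -0.11 and 0.10 (mean -0.34, two-sided exact permutation p = 0.205), so that its difference from the epithelial reference was within the spread between samples.

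**Figure D3:**
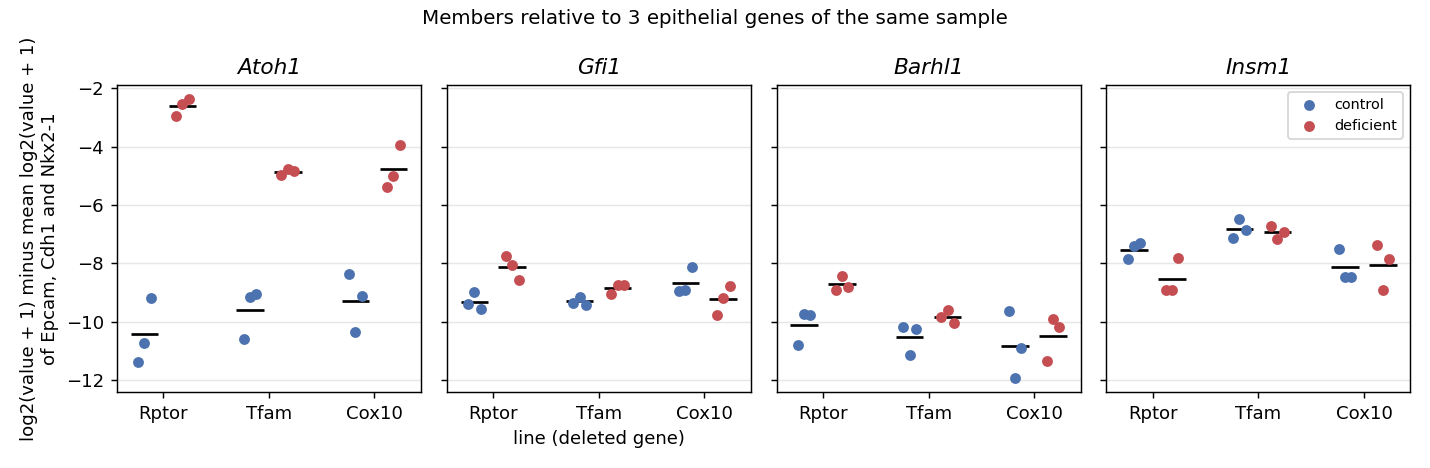
Atoh1, Gfi1, Barhl1 and Insm1 relative to epithelial genes. The y axis is log2(value + 1) of the gene minus the average of that for Epcam, Cdh1 and Nkx2-1 in the same sample, the x axis is the line, points are samples (blue control, red deficient) and bars are group means. The gap between red and blue is widest for Atoh1 (7.82, 4.73 and 4.50) and below 1.40 for the other 3 genes.

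Genes that lie beside the members were examined next. Smarcad1, a chromatin remodeller gene 311 kb from Atoh1, did not pass the threshold in any line, with log2 differences of -0.12, -0.013 and -0.11. Of the neighbours of the target factors, Ddx31, a helicase gene 2.11 kb from Barhl1, fell in the Rptor line (642 and 430 normalised reads, log2 difference -0.58, adjusted p = 0.00390), whereas Ttf1 and Ralgapa2 passed in no line and 4930428O21Rik was at or near 0. Evi5 and Crnkl1 missed the threshold in the Rptor line (log2 differences 0.22 and -0.33, adjusted p = 0.0568 and 0.0641 in limma) but passed with the replicate block (0.0300 and 0.0213), in the fit of all 18 samples (0.0278 and 0.0134) and by DESeq2 (0.0438 and 0.0328), and Evi5 also with library totals as the scale (0.0477).

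The genes whose pattern over the 18 samples was most like that of Atoh1 were found by Pearson's r on log2(value + 1) after the mean of each line had been subtracted, among 14549 genes tested in all 3 lines. They were Pthlh (r = 0.976), Bmp4 (0.963), Fam105a, Csf2ra, Fgf10, Lepr, Tmem100, Adamts1, Rhou and Aox3 (0.951). These values are descriptions over libraries that share their control and deficient groups, so that any gene with a large difference between the groups scores highly. Pthlh, which encodes a secreted hormone-like peptide of the lung epithelium, went from 143, 139 and 157 to 483, 466 and 549 normalised reads in the Rptor line. It went from 145, 178 and 197 to 590, 525 and 526 in the Tfam line and from 171, 124 and 177 to 281, 367 and 388 in the Cox10 line. Its log2 differences were 1.76, 1.66 and 1.13, with adjusted p-values of 3.39e-05, 2.53e-05 and 0.0492 in limma, and in the Cox10 line the call was lost with the replicate block (adjusted p = 0.0614), with library totals as the scale (0.0512), without a filter (0.0504) and without any 1 control or deficient replicate 2 (adjusted p = 0.125 to 0.223). The morphogen gene Bmp4 had log2 differences of 0.63, 0.61 and 0.47, and Fgf10, the mesenchymal growth factor that drives budding, of 1.87, 0.93 and 1.00. None of the target factors was among these 10 genes. Insm1 had r = -0.615 and was ranked 12009 from the top.

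**Figure D4:**
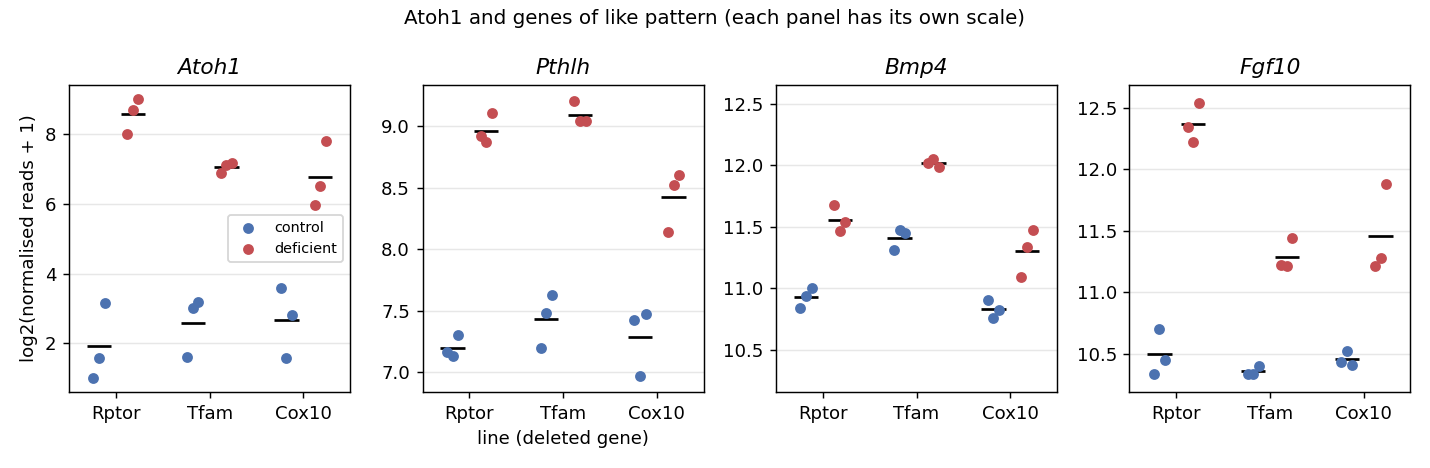
Atoh1 and 3 of the genes whose pattern was most like it, Pthlh, Bmp4 and Fgf10, in each sample, as log2(normalised reads + 1) on the y axis (each panel has its own range) by line on the x axis. Points are samples (blue control, red deficient) and bars are group means. In every panel the deficient samples lie above the controls of their own line, a pattern that the measure of likeness selects for.

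The partners and regulators of Atoh1 were then examined. Among 23 atonal-related bHLH genes, 4 were abundant enough to be tested in each line, and 11, 5 and 9 were at 0 in every sample of the Rptor, Tfam and Cox10 lines. In the Rptor line Atoh8 and Bhlhe22 rose and Bhlha15 fell, and none passed in the Tfam or Cox10 line, with medians of -0.21, -0.17 and 0.13 (34.8%, 4.66% and 0.475% of all tested genes were called). Atoh8 had means of 452 and 718 normalised reads in the Rptor line (log2 difference 0.65, adjusted p = 0.00386), and Bhlha15, a factor of secretory cells, had 25.3 and 10.3 (log2 difference -1.21, adjusted p = 0.0157, and 0.0576 or 0.0590 without control replicate 1 or 3). Neurod1, a neuronal bHLH gene, was not above a single read in any sample. Of 7 genes for E proteins and Id inhibitors, Id1 and Id2 rose in the Rptor and Tfam lines (16.6% and 2.03% of all tested genes rose there) and none passed in the Cox10 line, where Id2 had an adjusted p of 0.0571 (0.000661 in the fit of all 18 samples). For Id1 the call was lost without control replicate 1 or deficient replicate 3 of either line (adjusted p = 0.0555 to 0.0674), and for the Rptor line in the fit of all 18 samples (0.0583). Id2 had means of 4219 and 5380.1 normalised reads in the Rptor line and of 4221 and 6231 in the Tfam line. The E protein genes Tcf3, Tcf4 and Tcf12 did not pass in limma line by line (for Rptor adjusted p = 0.0533, 0.0693 and 0.691), but with the replicate block Tcf3 was lower (log2 difference -0.18, adjusted p = 0.0406) and Tcf4 higher (0.18, adjusted p = 0.0406) in that line. Tcf3 also passed there with TMM scaling, DESeq2 and the fit of all 18 samples (adjusted p = 0.0348 to 0.0499), and Tcf4 in the last of these (adjusted p = 0.0164).

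Notch signalling genes gave 5 rises and no fall among 18 tested in the Rptor line, 1 fall (Lfng) in the Tfam line and no call in the Cox10 line, with median log2 differences of 0.20, 0.022 and 0.082. Over all tested genes 34.8% were called in the Rptor line, 16.6% higher and 18.2% lower, and 4.66% in the Tfam line. The largest was Dll3, a divergent Notch ligand gene, which had 4.99, 12 and 15.9 normalised reads in Rptor line controls and 45.9, 36.6 and 109 in Rptor-deficient lungs (log2 difference 2.40, adjusted p = 0.00681 in limma). In the Tfam and Cox10 lines Dll3 had log2 differences of 0.69 and 0.30 (adjusted p = 0.230 and 0.801). Dll4, Jag2, Notch2 and Notch3 rose by less. Hes1, the Notch effector that represses Atoh1 in other tissues, had log2 differences of 0.068, 0.0079 and -0.17 and passed in no line, and Hes5 had group means of at most 2.03 normalised reads. Of 9 tested genes for upstream and stability factors of Atoh1, 3 fell on deletion of Rptor and 1 on deletion of Tfam, and no gene rose, where 34.8% and 4.66% of all tested genes were called (18.2% and 2.63% lower). Sox2, an activator of Atoh1 in the inner ear and the marker of the conducting airways in the lung, fell in the Rptor line, with means of 419 and 49.5 normalised reads (log2 difference -3.09, adjusted p = 0.000164) and from 575 to 403 in the Tfam line (-0.51, adjusted p = 0.0189). The Tfam call of Sox2 was lost without control replicate 2 or deficient replicate 2 or 3 (adjusted p = 0.0627 to 0.0778) and in a fit of all 18 samples (adjusted p = 0.407). In the Cox10 line Sox2 had means of 479 and 334 (-0.60, adjusted p = 0.436).

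The cell types that Atoh1 is known to specify were described by their gene lists, which share some genes with each other and with the target factors. Of the 35 hair cell genes, 15 were tested in the Rptor line, where 6 rose and 2 fell, 16 in the Tfam line, where 2 rose and 1 fell, and 18 in the Cox10 line, where none passed. Of all tested genes 16.6% rose and 18.2% fell in the Rptor line, 2.03% rose and 2.63% fell in the Tfam line and 0.475% were called in the Cox10 line. The medians of the list were 0.50, 0.16 and 9.8e-06 on the log2 scale. Otof, an exocytosis gene of inner hair cells, rose in the Rptor line, with means of 161 and 388 normalised reads (log2 difference 1.26, adjusted p = 0.000186), and its differences of 0.61 and 0.63 in the Tfam and Cox10 lines had adjusted p-values of 0.0519 and 0.340 in limma. In the Tfam line Otof passed with library totals as the scale (adjusted p = 0.0475), the replicate block (0.0456), edgeR (0.0485) and DESeq2 (0.0210). Calb2, which encodes the calcium-binding protein calretinin, rose in the Rptor line (484 to 1595 normalised reads, log2 difference 1.72, adjusted p = 4.41e-05) and in the Tfam line (563 to 915, 0.70, adjusted p = 0.000277), but had 984 and 929 in the Cox10 line. Rbm24, an RNA-binding protein gene of muscle and hair cells, rose in the Rptor line (log2 difference 1.53, adjusted p = 0.000825), and Smpx, a gene of muscle and hair cells, fell there (-0.96, adjusted p = 0.00249) and in the Tfam line (-0.44, adjusted p = 0.0175), the latter call being lost without control replicate 1 or deficient replicate 2 or 3 (adjusted p = 0.0595 to 0.0913) and in the fit of all 18 samples (0.0936).

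Of 24 intestinal secretory genes, 4 of 15 tested rose and 1 fell in the Rptor line, 1 of 14 rose in the Tfam line and none of 13 passed in the Cox10 line, with medians of 0.36, 0.072 and 0.13. The share called among all tested genes was 34.8% for Rptor, close to that of this list, and 4.66% for Tfam. Sct, which encodes the hormone secretin, rose from 11, 6.99 and 17.9 to 27.5, 29.7 and 68.2 normalised reads in the Rptor line (log2 difference 1.69, adjusted p = 0.0175 in limma). In the Tfam line Sct rose from 8.13, 13.1 and 14 to 23.8, 32.8 and 45 (1.44, adjusted p = 0.0259). Both calls of Sct rested on single samples: they were lost without Rptor control replicate 2 or deficient replicate 3 (adjusted p = 0.0663 and 0.0513) and without Tfam control replicate 1 or deficient replicate 2 or 3 (adjusted p = 0.0800 to 0.133). The Cox10 line, in which Sct was under the level needed for the fit, had 5.96, 6.05 and 6.0 in controls and 9.98, 11.1 and 38.6 in deficient lungs, so that the groups did not overlap in any of the 3 lines. Foxa3 and Clca1, genes of goblet cells, rose in the Rptor line (log2 differences 0.96 and 1.13, adjusted p = 0.0429 and 0.00290), and in the Tfam line their adjusted p-values were 0.114 and 0.0501. The call of Foxa3 was lost without any 1 Rptor line sample except deficient replicate 2 (adjusted p = 0.0578 to 0.140) and without a filter (0.0605), and Clca1 passed in the Tfam line without control or deficient replicate 3 (adjusted p = 0.0455 and 0.0299), with library totals as the scale (0.0442) and by DESeq2 (0.00988). Muc2, the intestinal mucin gene, passed in no line.

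Among 16 Merkel cell genes, 2 of 12 tested rose and 5 fell in the Rptor line, 1 of 13 fell in the Tfam line and none passed in the Cox10 line, with medians of 0.056, -0.10 and -0.30, beside 16.6% of all tested genes higher and 18.2% lower for Rptor and 2.63% lower for Tfam. The genes that fell in the Rptor line were Insm1, Sox2, Krt8, Krt18 and the vesicle gene Rab3c (65.8 and 12.3 normalised reads, log2 difference -2.34, adjusted p = 0.000445), of which Krt8 and Krt18 are also on the lung epithelial list. Of 20 genes of the rhombic lip and granule neurons, 4 of 9 tested rose and 1 fell in the Rptor line, 1 of 11 fell in the Tfam line and none of 10 passed in the Cox10 line, with medians of 0.25, -0.016 and -0.027, beside the same shares of all tested genes (34.8% called for Rptor, 4.66% for Tfam). Robo3, an axon guidance receptor gene, was the one that fell, with means of 48.5 and 14.3 normalised reads in the Rptor line and 41 and 18.4 in the Tfam line (log2 differences -1.65 and -1.11, adjusted p = 0.00646 and 0.0348). Without Tfam control replicate 1 or 3 or deficient replicate 1 or 2 the Tfam call of Robo3 was lost (adjusted p = 0.0708 to 0.161), as it was without a filter on low values (0.0555) and in the fit of all 18 samples (0.0873). Of 20 pulmonary neuroendocrine genes, which include Insm1, 1 of 13 tested rose and 3 fell in the Rptor line, 2 of 13 fell in the Tfam line and none of 14 passed in the Cox10 line, with medians of 0.22, -0.19 and -0.27, and the Rptor count is near the 34.8% of all tested genes called there (4.66% for Tfam). Beside Insm1, Uchl1, a neuroendocrine ubiquitin hydrolase gene, had means of 876 and 357 normalised reads in the Rptor line (log2 difference -1.30, adjusted p = 0.000121) and 1062 and 747 in the Tfam line (-0.52, adjusted p = 0.0261, 0.0812 in the fit of all 18 samples, and 0.0621 to 0.111 without control replicate 1 or 2 or deficient replicate 2 or 3). Chga, the granule protein gene that defines these cells, had group means of 5.36 to 15 normalised reads, was too low for the fit in the Rptor line and did not pass in the other lines.

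The absence of calls in the Cox10 line depended on the tool for some of these lists. At an unadjusted p below 0.05 in limma, 2 hair cell, 1 intestinal secretory, 6 Merkel cell, 2 rhombic lip, 3 neuroendocrine, 2 Notch, 3 E protein or Id, 2 upstream and 0 bHLH genes passed in that line. DESeq2 on the recovered reads called Id1, Id2, Notch2, Krt8, Piezo2, Cplx2, Ddc and Uchl1 there, and edgeR called no gene of these lists. Neither tool called a hair cell, intestinal secretory, rhombic lip or bHLH gene in the Cox10 line. In the Tfam line 1 bHLH gene had an unadjusted p below 0.05, and edgeR and DESeq2 called 0.

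**Figure D5:**
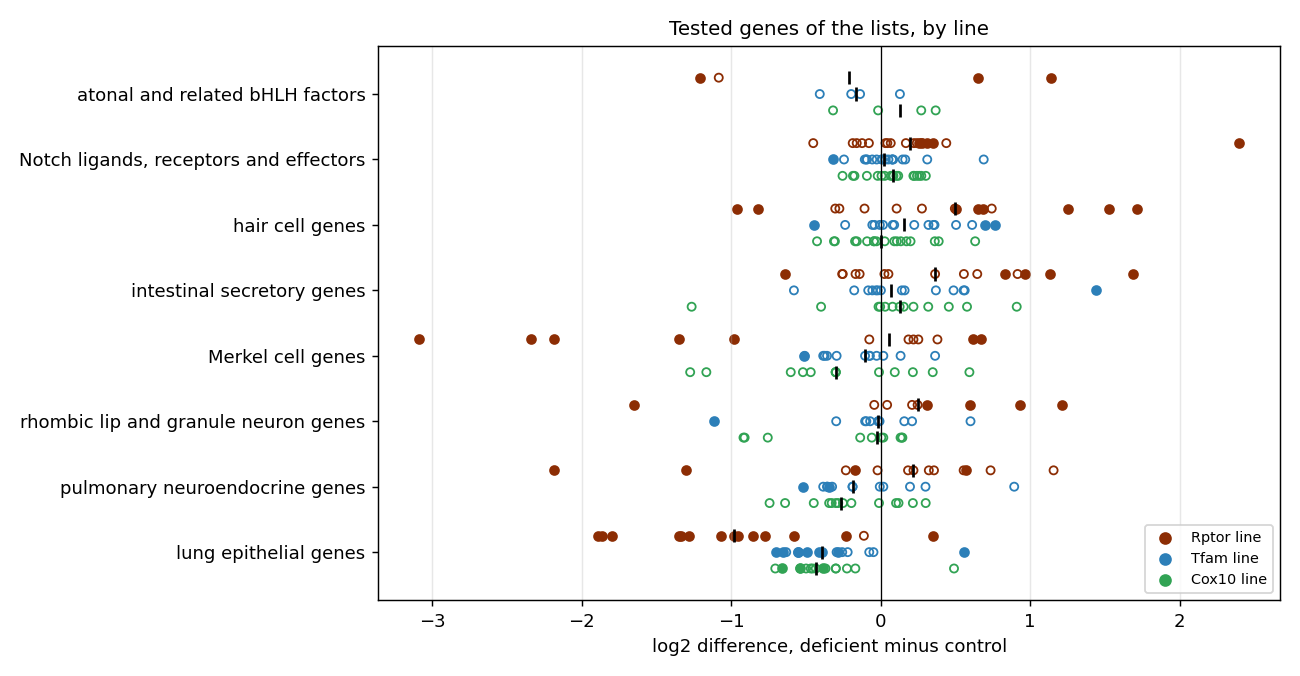
Log2 difference, deficient minus control (x axis), of the tested genes of 8 gene lists (y axis), with the Rptor line in brown, the Tfam line in blue and the Cox10 line in green. Each point is a gene, filled where it passed an adjusted p of 0.05 in limma, and black ticks are list medians. Lung epithelial genes lie to the left in all 3 lines (medians -0.98, -0.39 and -0.43), whereas the lists of Atoh1-dependent cell types spread to both sides of 0.

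Markers of other cells that a whole lung sample can hold were read beside these values, and their part in the result was not tested. Of 15 neuron and glia genes, 1 (Ret) fell among 11 tested for Rptor and 14 tested for Tfam, beside 18.2% and 2.63% of all tested genes lower. None of 14 passed for Cox10, where Ret was called by DESeq2. Their summed levels overlapped between control and deficient lungs of every line (555 to 784 normalised reads over the Rptor samples). Of 10 leukocyte genes, a class of cells known to express Gfi1, 5 of 6 tested rose in the Rptor line, where 16.6% of all tested genes did, with sums of 2539-2639 normalised reads in controls and 4077-4947 in deficient lungs. None passed with Tfam or Cox10 deleted, where 5 and 1 of these genes had an unadjusted p below 0.05 in limma, edgeR called 0 and DESeq2 called 1 and 0. The leukocyte sums were 3180-3694 and 3820-4199 for Tfam and 1798-2380 and 2171-3202 for Cox10. Of 14 thymus and lymphoid genes only 3 were tested in the Rptor line, of which 1 rose (16.6% of all tested genes did), and the T cell genes Cd3d and Cd8b1 were at 0 in all 18 samples. Among 7 oesophagus and trachea genes, 1 of 4 tested rose in the Rptor line, against the same 16.6%. Neither of these lists had a call by limma, edgeR or DESeq2 in the other lines, where only 1 oesophagus and trachea gene, in the Tfam line, had an unadjusted p below 0.05 in limma.

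Of 14 stomach and gut genes, which a dissected lung can carry from neighbouring tissue, 3 fell with Rptor deleted, 2 with Tfam deleted and 1 with Cox10 deleted, and none rose, beside 18.2%, 2.63% and 0.335% of all tested genes lower. Their sums were 1328-2389 normalised reads in Rptor controls and 175-256 in Rptor-deficient lungs, 1699.8-1932 and 365-402 for Tfam, and 466-541 and 255-259 for Cox10, so that the sums were lower without overlap in deficient lungs of each line. The median log2 differences of the tested genes were -1.21, -0.29 and -0.081. In the Cox10 line 1 of 5 tested genes was lower without overlap and 1 was higher. The part of such tissue in the values of Atoh1 was not tested.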

How the data were processed

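Whole lungs of 18 mouse embryos, 3 control and 3 deficient samples in each of the Rptor, Tfam and Cox10 lines, were analysed by RNA-seq. Per the labels and the study's methods, RNA was extracted with TRIzol and an RNeasy kit and sequenced on a BGISEQ-500, whereas the labels name an Illumina library protocol. The submitters' processing notes list Trim Galore, HISAT2, featureCounts, DESeq2 and mm10, without parameters, and whether counting used strand is not given in the sources used here. The authors deposited, per line, a normalised signal for each gene and sample, that is, a read count divided by a size factor. All values (100%) were whole multiples of 1 step per sample within a tolerance of 0.01, and the reads recovered in this way were used for counting intervals and count tests. The tables also hold the authors' log2 fold changes, p-values and adjusted p-values, which were not used.

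The members, gene lists and tests were chosen with earlier results of these data known. Groups were taken from sample titles. The design had foreseen a count test for counts and limma for normalised values, and limma was therefore chosen. Values were taken as log2(value + 1), which understates changes of low genes. Genes with a value of 10 or more in at least 3 samples of a line were fitted line by line in limma 3.58.1 (R 4.3.3, lmFit, eBayes with trend), with Benjamini-Hochberg adjustment over all tested genes and a threshold of 0.05. The mean effect and the differences between lines came from a model of 6 groups and 18 samples on 14550 genes tested in all lines. Members under the filter were compared by two-sided exact permutation within lines (8000 arrangements, smallest p 0.00025). A comparison of 3 samples with 3 cannot give a p below 0.1. Alternatives were scaling to library totals, TMM scaling, no filter, a pseudocount of 0.1, a replicate block, a single fit of all samples, edgeR 4.0.16, DESeq2 1.42.0, the lung epithelial list as reference, and leaving out each sample. Scripts were tested on simulated data.

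Same-numbered samples of the Rptor line deviated together from their group means (correlations 0.221, 0.330 and 0.259 across genes), so the titles' numbers were taken to pair samples there. The correlations were uneven in the Cox10 line (0.447, 0.202 and 0.0488) and mostly negative in the Tfam line (-0.312, -0.207 and 0.151). The main fits did not use pairing in any line, and the replicate block is given as an alternative.

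Named genes were the members, their nearest neighbours, the 10 genes most like Atoh1 and up to 4 genes of each list that passed in any line with the largest mean change. Genes named beside them were chosen after their values were seen. Insm1 has no entry in the promoter table used, and 1 gene that met the rule is not reported here.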

Additional observations from a re-analysis of the deposited data

Results flagged for a closer look

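The effects of a pair of lines were tested against each other in the 18-sample limma model, and the genes named in the report whose effects differed (adjusted p below 0.05) are given here as log2 values. No member is among them: the largest such values for Insm1, -1.80 and -1.89, did not pass. Calb2, the calretinin gene of the hair cell list, had a larger effect on deletion of Rptor than of Tfam by 1.015 (adjusted p = 0.000456) and than of Cox10 by 1.81 (adjusted p = 2.25e-06). Sox2 was lower in the Rptor line by a difference of -2.57 from the Tfam effect (adjusted p = 0.000597) and of -2.485 (adjusted p = 0.000784) from the Cox10 effect. For Cdh1 these differences were -1.34 and -1.45 (adjusted p = 1.02e-05 and 8.69e-06), for Ddx31, the neighbour of Barhl1, -0.475 and -0.515 (adjusted p = 0.0324 and 0.0268), and for Fgf10 0.936 and 0.868 (adjusted p = 0.00523 and 0.00939). Only the Rptor and Tfam effects differed past the threshold for Epcam (-0.725, adjusted p = 0.0151), Nkx2-1 (-0.635, adjusted p = 0.00868), Rab3c (-1.83, adjusted p = 0.0365) and Uchl1 (-0.783, adjusted p = 0.0267). Only the Rptor and Cox10 effects did so for Clca1 (0.911, adjusted p = 0.0423) and Smpx (-0.936, adjusted p = 0.00543). Between the Rptor and Tfam effects 11.2% of 14550 genes passed, and between the Rptor and Cox10 effects 7.48%.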

How the results depend on the processing

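The log2 difference of Atoh1 kept its sign under every alternative and every left-out sample, and it ranged from 6.19 to 7.27, 3.96 to 4.75 and 3.57 to 4.56 for Rptor, Tfam and Cox10 when single samples were left out. The call of Insm1 in the Rptor line was kept under all planned settings. Gfi1 and Barhl1 without the epithelial reference passed in none. The number of genes called was 702 in the Tfam line, 399 with all 18 samples in a single fit and 363 to 1123 with a sample left out. In the Cox10 line it was 71, 327 in the single fit, 325 by DESeq2 against 68 by edgeR and 3 to 251 with a sample left out. Where a sample was left out, the group kept 2 samples. Insm1 passed in the difference between the Rptor and Tfam effects with the replicate block (-1.80) and with edgeR (-1.77), and in that between the Rptor and Cox10 effects with the block (-1.89). The block gave 5768, 802 and 48 calls for Rptor, Tfam and Cox10 (5202, 702 and 71 without it) and changed no other call of a member. With a sample left out these differences ranged from -2.27 to -1.50 and from -2.36 to -1.58. Barhl1 relative to epithelial genes no longer passed with a pseudocount of 0.1 (0.90) and ranged from 0.62 to 1.01 with a sample left out. The cause was not tested. Values that did not pass the test and changed sign when a sample was left out were Insm1 in the Cox10 line (-0.55 to 0.15) and between the Tfam and Cox10 effects (-0.54 to 0.17), Hes1 in the Rptor line (-0.10 to 0.16) and the Tfam line (-0.033 to 0.052), Bhlha15 (-0.37 to 0.10), Epcam (-0.15 to 0.060) and Smarcad1 (-0.040 to 0.0096) in the Tfam line, and Ddx31 (-0.12 to 0.015) and Smpx (-0.12 to 0.041) in the Cox10 line. For the other genes named, 559 of the fits under alternatives other than leaving out a sample kept direction and call, 20 gained a call and 10 lost it, and the calls lost without a sample stand beside each gene. Same-numbered samples of the Tfam line correlated at -0.312, -0.207 and 0.151 and those of the Cox10 line at 0.447, 0.202 and 0.0488. The block thus had no basis in the Tfam line and an uneven one in the Cox10 line, but the block fit of all 18 samples used it in every line.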
